A study of Mus musculus with 4 samples.

Results

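The lymphoid priming genes described here are 10 mouse genes of early lymphoid development, Dntt, Rag1, Rag2, Satb1, Ikzf1, Notch1, Ccr9, Mef2c, Tcf3 and Bcl11a. They were chosen by name, and each was read from the probe set that names that gene alone and has the highest mean over the 4 arrays. Of the 10 genes, 9 were measured in this way, among 22180 genes so measured in all. Rag1 was named only together with Iftap on 1 shared probe set, so it has no value of its own. A floor was set at the median of all deposited values, 5.475 on the log2 scale, and a gene passed it when its highest value reached it. Of the 9 genes, 7 passed, and Rag2 and Ccr9 lay under the floor on all 4 arrays.

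RNA came from LSK cells, the lineage-negative, Sca-1-positive and c-Kit-positive fraction of bone marrow. The mice were C57/B6 males, 4 months of age. The 4 groups, with 1 Affymetrix array each, were AMKO mice at day 8 after 5-fluorouracil (5FU), AMKO mice at basal (day 0), Ctrl mice at day 8 after 5FU and Ctrl mice at basal. The 5FU dose was 150 mg/kg, and the series design gives it as a way to activate hematopoietic stem cells. AMKO is used as the labels print it, since they do not spell out the genotype, and whether RNA of several mice went onto one array is not stated. With 1 array per group, no value below has a replicate error, and a comparison of 1 array with 1 array has no test.

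The LSK fraction holds stem cells and multipotent progenitors, and some of these progenitors begin to express lymphoid genes before they commit to the lymphoid lineages. This priming is known to need transcription factors such as Ikaros (Ikzf1), the E protein E2A (Tcf3), Mef2c, Bcl11a and the chromatin organiser Satb1. The recombinase subunits Rag1 and Rag2 and the terminal transferase Dntt then build antigen receptor genes. Notch1 directs progenitors towards the T lineage, and Ccr9 is a chemokine receptor that guides cells to the thymus.

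The Ctrl 5FU array stood apart from the other 3 arrays. Of 14 mature neutrophil genes measured, 6 were at or above the floor in AMKO 5FU and 3 in AMKO basal, and 14 in Ctrl 5FU and 3 in Ctrl basal. The mean log2 level of this list was 5.13 in AMKO 5FU and 4.95 in AMKO basal, and 10.52 in Ctrl 5FU and 5.01 in Ctrl basal. Xist, the RNA that coats the silenced X chromosome in female cells, was at 3.97 in AMKO 5FU and 4.41 in AMKO basal. It was at 7.65 in Ctrl 5FU and 4.23 in Ctrl basal, although all 4 samples are labelled male. Kit, which encodes the sort marker c-Kit, was at 11.16 in AMKO 5FU, 11.87 in AMKO basal, 11.08 in Ctrl 5FU and 11.84 in Ctrl basal. Of the further LSK and progenitor genes, Cd48, carried by multipotent progenitors more than by stem cells, was higher after 5FU by 4.34 in AMKO and 4.97 in Ctrl. Its values in AMKO basal (5.15) and Ctrl basal (4.99) lay under the floor, so these sizes are uncertain. Every Ctrl 5FU difference below rests on the Ctrl 5FU array.

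The promoters of 3 members are shown because these genes stand for the patterns found: Dntt and Satb1 were the members at least 2-fold higher after 5FU in Ctrl, and Bcl11a was lower after 5FU in both genotypes. Each window is the RefSeq promoter on GRCm38.p6, from 250 bases before the start to 50 after it, written 5′ to 3′ on the gene's strand. Dntt lies at chr19:41029025-41029324 on the plus strand, Satb1 (the most upstream of 5 annotated starts) at chr17:51833241-51833540 on the minus strand, and Bcl11a at chr11:24080445-24080744 on the plus strand. Capitals mark matches, on either strand, to the LyF-1 (Ikaros) letters TGGGAG, the Ikaros letters TGGGAA or the E-box letters CAGGTG preferred by E proteins.
Dntt: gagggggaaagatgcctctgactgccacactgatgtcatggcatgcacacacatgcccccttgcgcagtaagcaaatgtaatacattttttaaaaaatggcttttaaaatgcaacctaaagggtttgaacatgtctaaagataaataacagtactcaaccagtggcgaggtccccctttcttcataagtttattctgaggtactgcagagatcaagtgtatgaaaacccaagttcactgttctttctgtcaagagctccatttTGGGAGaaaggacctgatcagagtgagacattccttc
Satb1: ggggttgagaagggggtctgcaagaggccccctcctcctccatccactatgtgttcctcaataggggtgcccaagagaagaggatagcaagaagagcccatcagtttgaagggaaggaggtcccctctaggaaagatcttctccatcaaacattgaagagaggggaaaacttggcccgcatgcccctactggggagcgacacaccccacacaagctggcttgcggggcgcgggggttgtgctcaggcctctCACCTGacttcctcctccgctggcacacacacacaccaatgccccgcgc
Bcl11a: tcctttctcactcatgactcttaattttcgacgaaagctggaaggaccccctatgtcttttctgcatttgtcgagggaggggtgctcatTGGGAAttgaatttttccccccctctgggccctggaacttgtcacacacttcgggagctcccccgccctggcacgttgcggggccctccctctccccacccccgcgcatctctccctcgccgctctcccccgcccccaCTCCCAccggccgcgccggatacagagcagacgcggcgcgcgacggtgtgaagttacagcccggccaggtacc

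LyF-1 is the name under which Ikaros was described on the Dntt promoter, and TGGGAG was added to the search after the Dntt window had been read. The Dntt window held TGGGAG starting at base 14, counted from 1 at the start site. The Satb1 window held the E-box on its other strand (CACCTG) starting at base 2. The Bcl11a window held TGGGAA at -161 and TGGGAG on its other strand at -23. All 10 genes had at least 1 window, 17 in all. TGGGAG was found in 8 of these windows and in 29.0% of 32544 mouse promoter windows of the same length. The 8 include the Dntt window, read before TGGGAG was added. They also include the windows of the Satb1 starts at bases 51812184 and 51812054, which overlap and share a match. Satb1 gave 5 of the 17 windows. No excess of TGGGAG is therefore read from this count. TGGGAA was in 4 of the 17 and in 25.4% of all, and CAGGTG in 4 of the 17 and in 20.3% of all. No matches overlapped each other in the 3 windows shown. The windows shown for Satb1 and Dntt had no motif in common, although TGGGAG was present in windows of other Satb1 starts.

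How LSK cells sorted 8 days after 5FU differed from basal LSK cells was read in each genotype. Dntt and Satb1 were at least 2-fold higher after 5FU in Ctrl, by 1.59 and 1.38 on the log2 scale, and differed by 0.30 and 0.23 in AMKO. Ikzf1 was higher in both genotypes, and Mef2c and Bcl11a were lower in both, each by less than 2-fold. Notch1, Tcf3, Ccr9 and Rag2 differed by at most 0.34 in either genotype. Of the 9 measured genes, 0 in AMKO and 2 in Ctrl were at least 2-fold higher, and 0 in each were at least 2-fold lower. Over all 22180 genes measured, the share at least 2-fold higher was 3.02% in AMKO and 3.32% in Ctrl, and the share at least 2-fold lower was 2.39% and 2.99%. The median difference of the 9 genes was -0.13 in AMKO and 0.30 in Ctrl, beside -0.02 and 0.00 over all measured genes. The AMKO median is the value of Ccr9, which lay under the floor on all 4 arrays, so no shift is read from it. For these genes, a change in the number of cells of a type and a change of RNA per cell cannot be told apart in bulk samples.

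**Figure D1:**
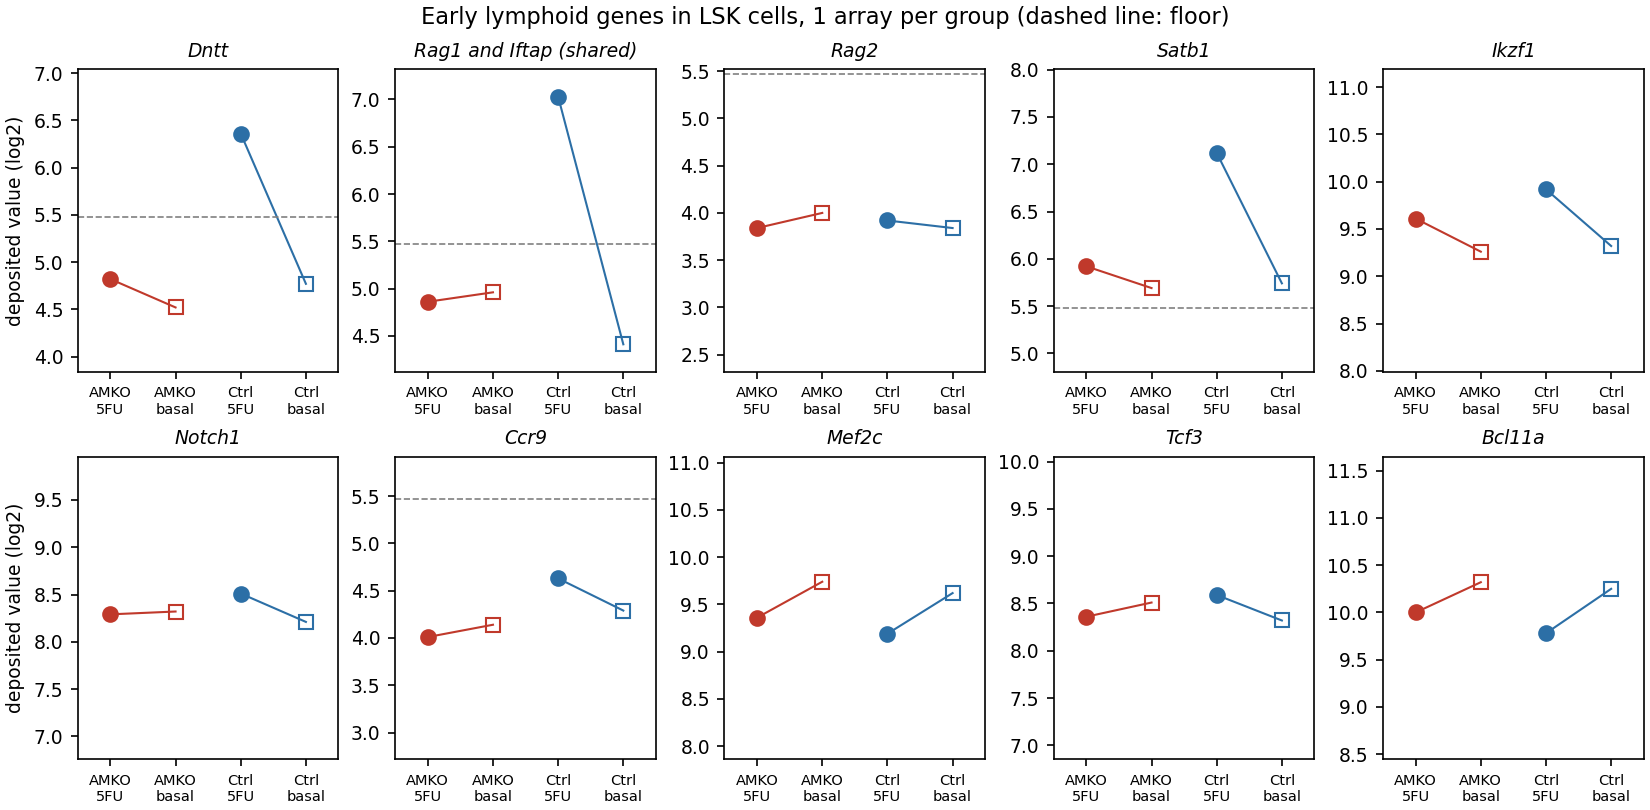
Deposited log2 values (y axis) of the 9 measured genes and of the probe set shared by Rag1 and Iftap on the 4 arrays (x axis), with AMKO in red, Ctrl in blue, 5FU as filled circles and basal as open squares; the lines join the arrays of a genotype, each panel spans the same log2 range and dashed lines mark the floor. Dntt, Satb1 and the shared probe set are highest in Ctrl 5FU, at 6.36, 7.12 and 7.03, while Mef2c and Bcl11a are lower at 5FU than at basal in both genotypes.

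Among the genes of antigen receptor assembly, Dntt adds untemplated nucleotides at the junctions of rearranged receptor genes. It was at 4.82 in AMKO 5FU and 4.52 in AMKO basal, and at 6.36 in Ctrl 5FU and 4.77 in Ctrl basal. Ctrl 5FU was thus the only array at or above the floor, by 0.89, and Dntt passed the floor through that array alone. The fold of 3.01 in Ctrl is of uncertain size, because the Ctrl basal value lay under the floor.

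Rag2, the partner subunit of the recombinase, was at 3.84 in AMKO 5FU and 4.00 in AMKO basal, and at 3.92 in Ctrl 5FU and 3.84 in Ctrl basal. Its 4 values lay under the floor and within 0.16 of each other, so no fold is given. The probe set shared by Rag1, the catalytic subunit, and Iftap was at 4.86 in AMKO 5FU and 4.96 in AMKO basal, and at 7.03 in Ctrl 5FU and 4.41 in Ctrl basal. Only the Ctrl 5FU array lay above the floor, 2.62 above Ctrl basal. The probe set that names Iftap alone had 7.79 in AMKO 5FU, 7.64 in AMKO basal, 7.50 in Ctrl 5FU and 7.61 in Ctrl basal. Iftap was thus slightly lower in Ctrl 5FU than in Ctrl basal. A probe set shared by Rag2 and Iftap lay between 3.26 and 3.67 on the 4 arrays.

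Satb1, a chromatin organiser needed for lymphoid output of stem cells, was at 5.92 in AMKO 5FU and 5.69 in AMKO basal, and at 7.12 in Ctrl 5FU and 5.74 in Ctrl basal. All 4 values were above the floor, but those of AMKO 5FU, AMKO basal and Ctrl basal by only 0.445, 0.215 and 0.265. The Ctrl 5FU array stood clear of the other 3, which lay within 0.23 of each other. The Ctrl fold was 2.60 and the AMKO fold 1.17, each taken over a basal value near the floor.

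Ikzf1 encodes Ikaros, a zinc finger factor required for lymphoid development. It was at 9.61 in AMKO 5FU and 9.26 in AMKO basal, and at 9.92 in Ctrl 5FU and 9.32 in Ctrl basal. Both 5FU arrays lay above both basal arrays, by 0.35 in AMKO and 0.60 in Ctrl, and the basal arrays lay within 0.06 of each other. The order of the arrays from high to low was the same as for Satb1: Ctrl 5FU, AMKO 5FU, Ctrl basal and AMKO basal. For Dntt only the place of Ctrl 5FU can be read, since its other 3 values lay under the floor.

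Mef2c is a MADS-box factor that favours lymphoid over myeloid fate in multipotent progenitors. It was at 9.36 in AMKO 5FU and 9.74 in AMKO basal, and at 9.19 in Ctrl 5FU and 9.62 in Ctrl basal. Bcl11a, a zinc finger factor needed for B cell development, was at 10 in AMKO 5FU and 10.32 in AMKO basal, and at 9.78 in Ctrl 5FU and 10.25 in Ctrl basal. For both genes, each 5FU array lay below each basal array, with differences of -0.38 in AMKO and -0.43 in Ctrl for Mef2c and of -0.32 and -0.47 for Bcl11a. The order from high to low was AMKO basal, Ctrl basal, AMKO 5FU and Ctrl 5FU for both. Each gene also had a second probe set under the floor on every array, and its differences were -0.39 in AMKO and -0.51 in Ctrl for Mef2c, and -0.20 and -0.13 for Bcl11a.

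Notch1, the receptor for T-lineage fate, was at 8.29 in AMKO 5FU and 8.32 in AMKO basal, and at 8.51 in Ctrl 5FU and 8.21 in Ctrl basal. Tcf3 encodes the E proteins E12 and E47, and its Entrez identifier on the platform is that of E2A. It was at 8.36 in AMKO 5FU and 8.51 in AMKO basal, and at 8.59 in Ctrl 5FU and 8.32 in Ctrl basal. Each gene was highest in Ctrl 5FU and lowest in Ctrl basal, with both AMKO values between them. Ccr9 was at 4.01 in AMKO 5FU and 4.14 in AMKO basal, and at 4.63 in Ctrl 5FU and 4.29 in Ctrl basal, all under the floor. Notch1, Tcf3, Ccr9 and Rag2, 4 of the 9 measured genes, differed in opposite directions in AMKO and Ctrl, beside 33.8% of all measured genes. The small AMKO difference of Notch1, -0.03, became 0.08 when each array was centred on its median, which moved the AMKO differences by 0.11 and the Ctrl differences by 0.04.

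**Figure D2:**
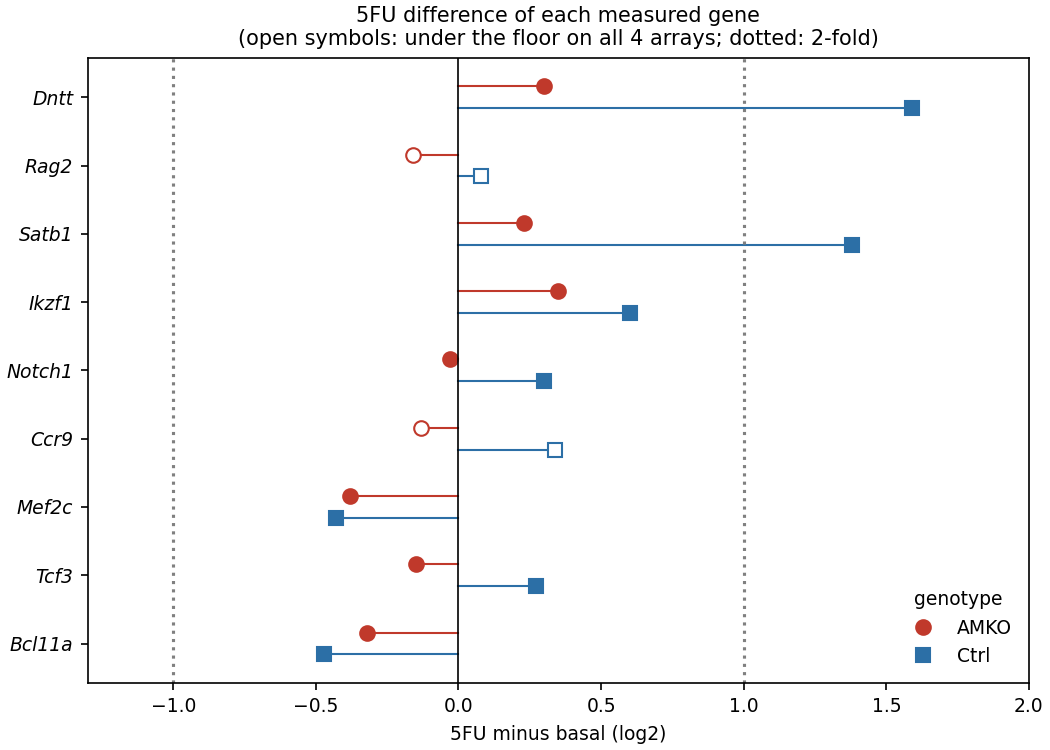
Difference of 5FU minus basal on the log2 scale (x axis) for each measured gene (y axis), with AMKO as red circles above Ctrl as blue squares; open symbols are genes under the floor on all 4 arrays and dotted lines mark 2-fold. Only Dntt (1.59) and Satb1 (1.38) pass the 2-fold line, both in Ctrl.

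The 5FU difference averaged over genotypes was tested with an additive limma fit over the 14061 genes that passed the floor. This fit has 1 residual degree of freedom and takes the difference between the genotypes' 5FU differences as error. Of the 7 members tested, 0 had an adjusted p under 0.05, beside 0% of all genes tested. At an unadjusted p under 0.05 there were 3, Ikzf1, Mef2c and Bcl11a, beside 27.8% of all genes tested. The averaged difference of Ikzf1 was 0.47 ± 0.13 (SE of the limma fit, adjusted p 0.132). It was -0.41 ± 0.114 for Mef2c (limma adjusted p 0.137) and -0.40 ± 0.113 for Bcl11a (limma adjusted p 0.14). For Satb1 it was 0.80 ± 0.341 (limma adjusted p 0.235). For Dntt it was 0.95 ± 0.388 (limma adjusted p 0.226), but Dntt entered the fit through the Ctrl 5FU array alone, so nothing is read from its test. Of the 7, 5 differed in 1 direction in both genotypes, beside 70.7% of all genes tested. Dntt is among the 5, but both of its AMKO values lay under the floor, so its direction in AMKO is not read.

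Without the Ctrl 5FU array, which sets AMKO 5FU against both basal arrays in a fit with treatment alone, the differences were 0.18 for Dntt and 0.21 for Satb1. For Ikzf1 the value was 0.32, for Mef2c -0.32 and for Bcl11a -0.28. The residual of this fit comes only from the gap between the basal arrays, so no p-value is given. The Dntt and Satb1 differences were thus over 1.5 times smaller without that array, and those of Ikzf1, Mef2c and Bcl11a moved by less than that. Without the AMKO 5FU array, the same fit sets the Ctrl 5FU array alone against both basal arrays. The differences were then 1.71 for Dntt and 1.40 for Satb1. These sizes rest on the Ctrl 5FU array, and no p-value is given for them either.

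AMKO was also set against Ctrl at each time. After 5FU, 7 of the 9 genes were lower in AMKO, beside 40.4% of all measured genes. The median difference was -0.23 for the 9 genes and 0.05 for all measured genes. The 7 include Rag2 and Ccr9, which lay under the floor on all 4 arrays, so their signs are not read. At least 2-fold lower were 2 of the 9, Satb1 (-1.20) and Dntt (-1.54), beside 1.8% of all measured genes. The size for Dntt is uncertain, because its AMKO 5FU value lay under the floor. This contrast after 5FU rests on the Ctrl 5FU array. In it, 14 of 14 mature neutrophil genes and 9 of 13 B-lineage genes were also at least 2-fold lower in AMKO. Of the 9 genes, 0 were at least 2-fold higher in AMKO, beside 0.537% of all measured genes. At basal the largest difference of any of the 9 was 0.25 in size, and 0 of the 9 were at least 2-fold higher or lower, beside 0.23% and 0.505% of all measured genes. When the Ctrl 5FU difference was subtracted from that of AMKO, the result was below 0 for 7 of the 9 genes, beside 48.3% of all measured genes. It was above 0 for Mef2c and Bcl11a. The 7 below 0 again include Rag2 and Ccr9. The result was at least 2-fold for Satb1 (-1.15) and for Dntt (-1.29, with 3 of its 4 values under the floor), beside 4.12% of all measured genes in either direction. This contrast between the genotypes was not tested.

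Many B-lineage and plasmacytoid dendritic cell markers were, like Dntt and Satb1, at least 2-fold higher in Ctrl 5FU than in Ctrl basal. Few T-lineage and natural killer cell markers were. Counted at any size, 12 of 13 B-lineage and 8 of 10 plasmacytoid dendritic cell genes were higher there, beside 10925 of all 22180 measured genes. The same held for 11 of 13 T-lineage and 7 of 10 natural killer cell genes. Only 7 of these 13 and 5 of these 10 passed the floor, and the signs of the others are not read. Of 13 B-lineage genes measured, 0 in AMKO and 10 in Ctrl were at least 2-fold higher after 5FU, and the median difference was 0.05 in AMKO and 1.73 in Ctrl. The number at or above the floor was 3 in AMKO 5FU and 4 in AMKO basal, and 11 in Ctrl 5FU and 3 in Ctrl basal, with mean log2 levels of 5.46, 5.48, 7.31 and 5.33 in that order. Cd79a, a signalling chain of the B cell receptor, was at 4.52 in AMKO 5FU and 4.57 in AMKO basal, and at 7.0 in Ctrl 5FU and 4.77 in Ctrl basal. Igll1, a chain of the surrogate light chain of early B-lineage cells, was at 4.96 in AMKO 5FU and 5.58 in AMKO basal, and at 8.01 in Ctrl 5FU and 5.12 in Ctrl basal. Vpreb1, its partner chain, and Vpreb3 were under the floor in Ctrl 5FU, at 5.05 and 5.37. Genes of this list were thus not all high in Ctrl 5FU.

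Of 10 plasmacytoid dendritic cell genes, 5 were at least 2-fold higher in Ctrl and 0 in AMKO. Klk1, counted among the 5 (1.18 in Ctrl), lay under the floor on all 4 arrays. The Ctrl differences ran from -0.22 to 5.49, with 2 of the 10 below 0, so genes of this list were not all higher. Siglech, a receptor of these cells, was at 4.90 in AMKO 5FU and 5.43 in AMKO basal, and at 7.50 in Ctrl 5FU and 4.62 in Ctrl basal. The number at or above the floor was 5 in AMKO 5FU and 5 in AMKO basal, and 8 in Ctrl 5FU and 4 in Ctrl basal. Mean levels of the list were 6.20 in AMKO 5FU and 5.98 in AMKO basal, and 7.51 in Ctrl 5FU and 5.91 in Ctrl basal. Of 13 T-lineage genes, 1 was at least 2-fold higher in Ctrl, Cd3g (1.52, above the floor in Ctrl 5FU alone), and 0 in AMKO. Mean levels were 5.52 in AMKO 5FU and 5.45 in AMKO basal, and 5.79 in Ctrl 5FU and 5.42 in Ctrl basal, with 4, 4, 7 and 4 genes at or above the floor in that order. Of 10 natural killer cell genes, 1 in AMKO and 2 in Ctrl were at least 2-fold higher, among them Nkg7 in both (1.77 and 1.86). Mean levels were 5.05 in AMKO 5FU and 4.90 in AMKO basal, and 5.36 in Ctrl 5FU and 4.85 in Ctrl basal, with 3, 3, 3 and 4 genes at or above the floor. The part of these cell types in the Dntt and Satb1 values was not tested.

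**Figure D3:**
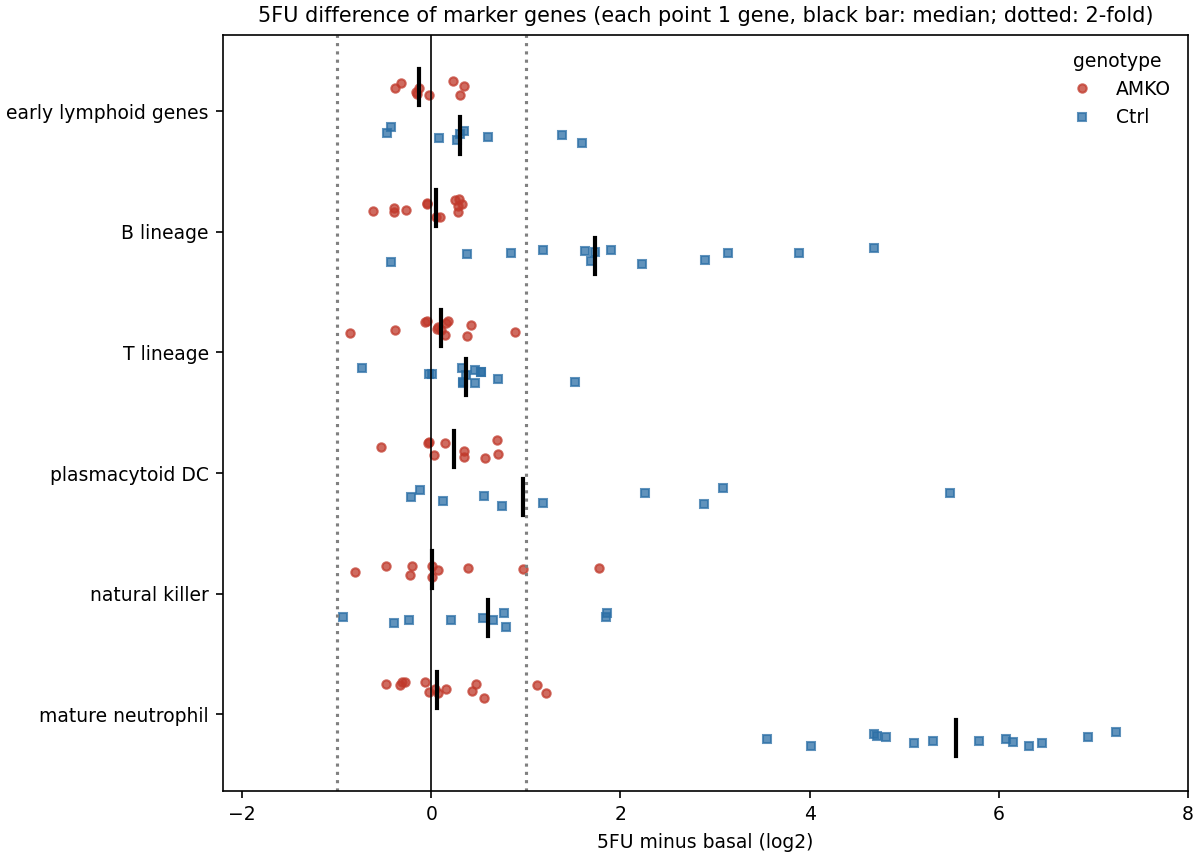
Difference of 5FU minus basal on the log2 scale (x axis) for the early lymphoid genes and 5 marker lists (y axis), with AMKO as red circles above Ctrl as blue squares; each point is 1 gene, black bars are medians and dotted lines mark 2-fold. The Ctrl medians are 1.73 for B-lineage and 5.55 for neutrophil genes, while the AMKO medians of both lists are 0.05 and 0.06.

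Likeness of profiles was measured as the Euclidean distance over the 4 arrays after each gene was centred on its own mean, for the members whose values spanned at least 1 on the log2 scale. These were Dntt (1.84) and Satb1 (1.43). The nearest genes to Dntt were Fcrl1, Blk and Ms4a6d, at distances of 0.07, 0.13 and 0.15. Like Dntt, each of them was above the floor in Ctrl 5FU alone. Nearness to Dntt thus shows only a rise of similar size on that array. Blk, which belongs to the B-lineage list, was at 5.06 in AMKO 5FU and 4.78 in AMKO basal, and at 6.60 in Ctrl 5FU and 4.87 in Ctrl basal. The nearest to Satb1 were 5430427O19Rik, Tmem154 and Bst1, at distances of 0.05, 0.08 and 0.10. Of these, 5430427O19Rik and Bst1 were also above the floor in Ctrl 5FU alone. With 4 arrays and 14061 genes these distances only describe the arrays.

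Other genes of the same pathways were read from lists chosen by name. The limma fit called 0 of all 14061 genes at an adjusted p under 0.05, so its calls tell nothing about these lists. Of 14 measured receptor and signalling genes of lymphoid progenitors, 2 in AMKO and 6 in Ctrl were at least 2-fold higher after 5FU, and the median difference was -0.04 in AMKO and 0.10 in Ctrl. Il7r, the receptor for a cytokine that lymphoid progenitors need, was at 3.32 in AMKO 5FU and 3.74 in AMKO basal, and at 7.42 in Ctrl 5FU and 3.46 in Ctrl basal. It was above the floor in Ctrl 5FU alone, as Dntt was. Flt3, a cytokine receptor of multipotent and lymphoid progenitors, was at 7.15 in AMKO 5FU and 6.63 in AMKO basal, and at 8.06 in Ctrl 5FU and 6.49 in Ctrl basal. Both 5FU arrays thus lay above both basal arrays. Tespa1 (3.02 in AMKO and 3.38 in Ctrl) and Themis2 (1.27 and 2.09), both linked to antigen receptor signalling, were at least 2-fold higher in both genotypes. Tespa1 was under the floor in AMKO basal (4.95) and Ctrl basal (5.37), so its sizes are uncertain.

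Of 21 further lymphoid transcription factors measured, 0 in AMKO and 7 in Ctrl were at least 2-fold higher, and 1 in each was at least 2-fold lower. The median difference was 0.03 in AMKO and 0.58 in Ctrl. The 5FU differences of Ebf1 and Pax5, which set up and maintain B cell identity, were 0.32 and 0.09 in AMKO, and 3.89 and 3.14 in Ctrl. Both also belong to the B-lineage list. Spib differed by 0.73 in AMKO and 3.80 in Ctrl, and Irf8 by 0.57 and 3.08. Ebf1, Pax5 and Spib were above the floor in Ctrl 5FU alone, and Irf8 was under it in Ctrl basal (5.38). The sizes for these genes are thus uncertain. Zfp521, an inhibitor of Ebf1, was the gene lower in both genotypes, by -1.19 in AMKO and -1.17 in Ctrl.

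Among partners of Rag1, Rag2 and Dntt in joining receptor genes, 3 of 14 in AMKO and 2 of 14 in Ctrl were at least 2-fold higher, with medians of 0.39 in AMKO and 0.21 in Ctrl. Hmgb2, a DNA-bending cofactor of the recombinase, differed by 1.44 in AMKO and 1.56 in Ctrl, and the histone H2ax by 1.07 and 1.40. Xrcc5, which encodes Ku80, differed by 1.01 in AMKO and 0.11 in Ctrl. These genes also act outside lymphoid cells, and Hmgb2 and H2ax are known to be high in dividing cells.

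In the Ikaros family and its NuRD partners, 1 of 16 genes was at least 2-fold higher and 1 lower in each genotype, with medians of 0.42 in AMKO and 0.30 in Ctrl. Ikzf4 (Eos) was the lower one in both, by -1.86 in AMKO and -1.32 in Ctrl, opposite in sign to Ikzf1. Ikzf3 (Aiolos) differed by -0.27 in AMKO and 2.77 in Ctrl, and Rbbp4, a histone-binding subunit, by 1.19 and 0.61. Ikzf3 was above the floor in Ctrl 5FU alone, so its sizes are uncertain. Among 10 partners and inhibitors of E proteins, Id1, which blocks DNA binding by E proteins such as Tcf3, was the 1 gene at least 2-fold higher in each genotype, by 1.43 in AMKO and 1.17 in Ctrl. The medians of this list were -0.02 in AMKO and -0.13 in Ctrl. Id1 was under the floor in Ctrl basal (5.17), so its Ctrl size is uncertain. Tal1 and Ldb1, which act in a complex with E proteins in stem cells, differed by -0.66 and -0.89 in AMKO, and by -0.82 and -0.96 in Ctrl.

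In the Notch pathway, 2 of 27 genes were at least 2-fold higher in AMKO and 2 were at least 2-fold lower in Ctrl, with medians of 0.11 in AMKO and -0.06 in Ctrl. Rbpj, the DNA-binding partner of the cleaved Notch receptor, differed by 1.36 in AMKO and 0.37 in Ctrl, and Adam10, a protease that cleaves Notch receptors, by 1.16 and 0.42. Dll4, a Notch ligand, differed by -0.43 in AMKO and -1.18 in Ctrl, and the coactivator Maml2 by -0.44 and -1.09. The Dll4 values were under the floor in AMKO 5FU (5.20) and Ctrl 5FU (4.75), so its sizes are uncertain. Of the target genes, Hes1 differed by 0.16 in AMKO and -0.06 in Ctrl, and Dtx1 by 0.39 and 0.15. In the list of other MEF2 factors and their class IIa deacetylases, 0 of 8 genes were at least 2-fold higher or lower in either genotype, and the same held for 0 of 9 homing receptors and ligands. The differences of Mef2d were -0.56 in AMKO and -0.28 in Ctrl, and those of Ccl25, the ligand of Ccr9, were -0.30 and -0.40.

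**Figure D4:**
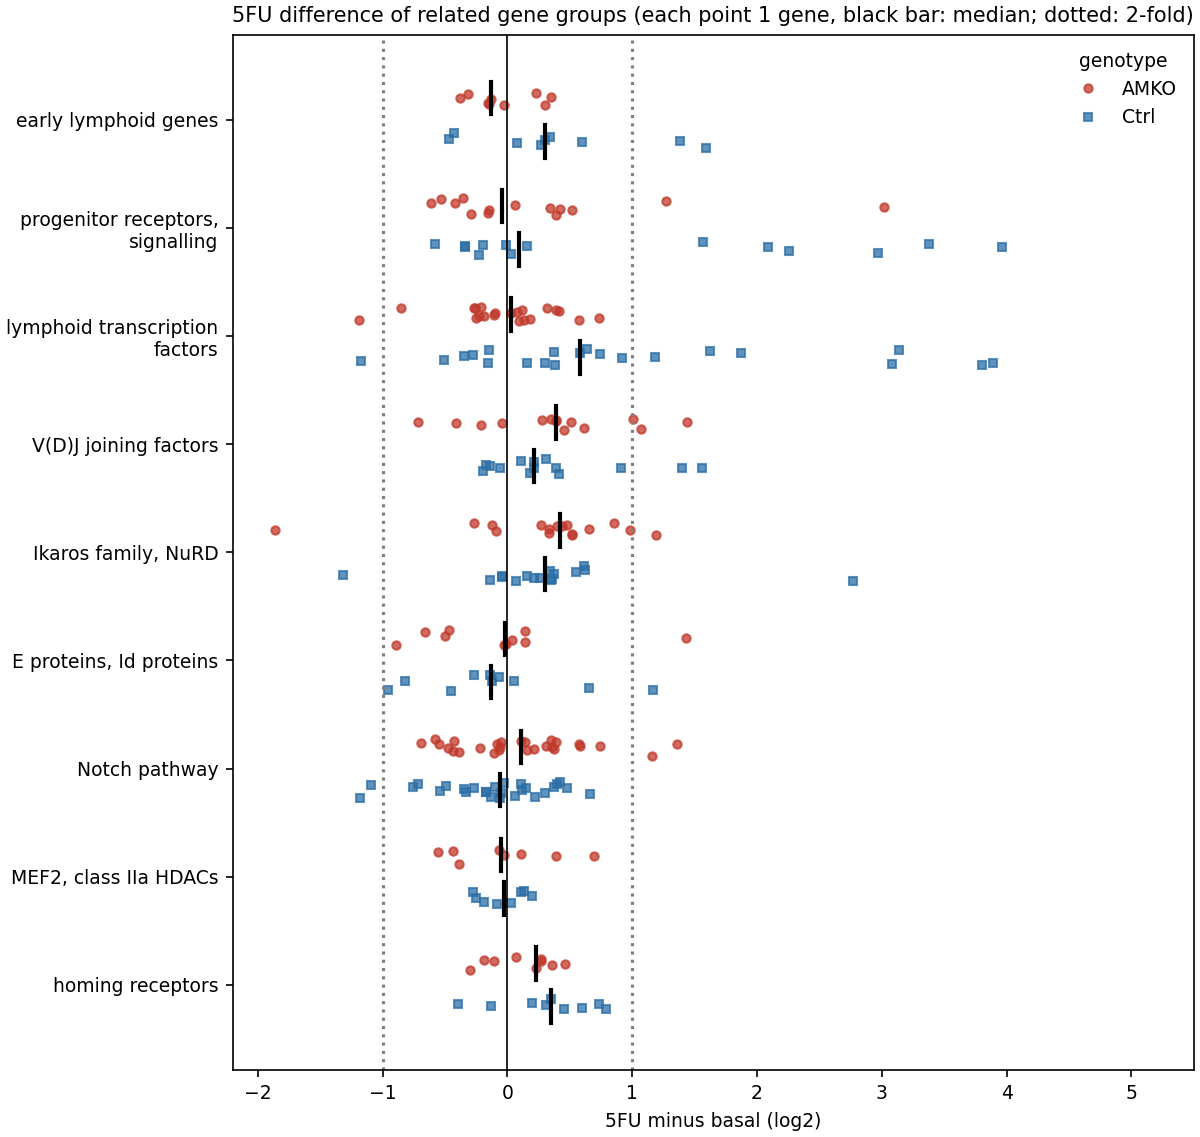
Difference of 5FU minus basal on the log2 scale (x axis) for the early lymphoid genes and 8 related gene lists (y axis), with AMKO as red circles above Ctrl as blue squares; each point is 1 gene, black bars are medians and dotted lines mark 2-fold. In Ctrl, 7 of 21 lymphoid transcription factors and 6 of 14 progenitor receptors and signalling genes lie past 2-fold on the higher side, against 0 and 2 in AMKO.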

How the data were processed

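Expression was measured on 4 Affymetrix arrays, 1 for each of 4 groups. The deposited values, 1 for each probe set on each array, were read as log2 because they ran from 1.99 to 13.43. How the authors corrected, summarized and normalized them was not given in the sources used here, and no further scaling was applied. The array medians were 5.44 for AMKO 5FU, 5.55 for AMKO basal, 5.43 for Ctrl 5FU and 5.47 for Ctrl basal. Precision is limited by the number of arrays.

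Of 34472 probe sets, 23521 had 1 gene symbol in the platform annotation, 1814 had several and 9137 had none. For 23328 the symbol was brought up to date by Entrez identifier, using RefSeq genes of GRCm38.p6. For the 1082 genes with several probe sets, the one with the highest mean was used.

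Differences between single arrays were counted at 2-fold. The averaged 5FU difference was modelled by limma 3.58.1 (R 4.3.3) with additive genotype and treatment terms and a mean-dependent eBayes prior, two-sided, with Benjamini-Hochberg adjustment over 14061 genes. The fit was tested on simulated data. The 10 members and the lists were chosen with earlier results of these data known. Genes were named from all members and from a pool. Per list, the pool held the 4 kept genes with the largest summed 5FU differences. It also held any gene of a list at least 2-fold different one way in both genotypes. To these were added the 3 nearest profiles of each member spanning at least 1 on the log2 scale. Not every gene of the pool is named. Iftap, Xist, Kit, Cd79a, Vpreb1, Vpreb3, Klk1, Hes1 and Dtx1 were named after their values were seen. Alternatives were quantile normalization, median centring, the mean of probe sets, other fold sizes, other floors, a robust or trend-free limma prior, and left-out arrays fitted with treatment alone.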

Additional observations from a re-analysis of the deposited data

Results flagged for a closer look

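In 4 of the 9 measured genes the 5FU difference went one way in AMKO and the other way in Ctrl, on the single array of each group. Over all measured genes this held for 33.8%. The AMKO difference less the Ctrl difference was -0.24 for Rag2, -0.33 for Notch1, -0.47 for Ccr9 and -0.42 for Tcf3, on the log2 scale. In each case the difference was below 0 in AMKO (-0.16, -0.03, -0.13 and -0.15 in that order) and above 0 in Ctrl (0.08, 0.30, 0.34 and 0.27). The differences between genotypes were not tested, since each group has 1 array. Rag2 and Ccr9 lay under the floor on every array, and the AMKO difference of Notch1 was 0.08 after each array was centred on its median.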

How the results depend on the processing

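The counts of members at least 2-fold different (0 in AMKO, 2 in Ctrl, and 2 for the difference between genotypes) were the same after quantile normalization, median centring and averaging of probe sets. At a 1.5-fold size the Ctrl count was 3, and at a 3-fold size it was 1; the AMKO count was 0 at both. The additive limma fit called 0 members under each alternative that kept every array. Its count over all genes, 0, became 947 after quantile normalization and 161 after median centring. It became 1293 with a floor at the 75th percentile (7.32) and 1315 with robust estimation. It stayed at 0 with averaged probe sets, no floor and no trend. With 1 array left out in turn it ranged from 0 to 461, with 461 reached without the AMKO 5FU array. Dntt and Satb1 lay under the higher floor and were not tested there. With every array kept, the limma adjusted p ranged from 0.152 to 0.309 for Satb1 and from 0.0787 to 0.204 for Ikzf1. It ranged from 0.0675 to 0.228 for Mef2c and from 0.0588 to 0.287 for Bcl11a. No range is given for Dntt, since nothing is read from its test. The averaged difference of Tcf3, 0.06, was -0.05 after quantile normalization and without the Ctrl 5FU array, and -0.03 without the Ctrl basal array, and the cause was not tested. No paired analysis was possible because each group holds 1 array.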
